A study of Mus musculus with 16 samples.

Results

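A set of 37 genes that build and maintain the Z-disc, the M-band and the thin filaments of the sarcomere was followed in cultured mouse myotubes with and without electrical stimulation. The genes were taken by their mouse symbols from a list of structural genes of the sarcomere. All 37 were found among the 48432 gene identifiers of the table, 36 had enough fragments to be tested, and none was among the genes whose estimate the table marks as skipped. The exception was Myoz3, a calcineurin-binding Z-disc protein of fast fibres, with 0 to 2 fragments per library.

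C2C12 is an established line of mouse myoblasts that fuse into contractile myotubes when serum is reduced. The cells, at passage 4-8, had differentiated for 5 days. Myotubes were then left non-stimulated (control, 4 libraries) or received electrical pulse stimulation (EPS, 4 libraries), an electric field that makes myotubes twitch. The pulse rate was 1 Hz, each pulse lasted 6 ms (0.6% of the time), the field strength was 2.75 V/mm, and its polarity alternated at 0.5 Hz. How long the cultures were stimulated is not stated in the labels, and no genotype or agent other than EPS separates the groups. RNA of the whole culture was sequenced, and each of the 8 libraries was run on 2 lanes, giving 16 GEO samples. Whether libraries of a group stem from separate cultures is not stated. The p-values therefore cover only the spread between these libraries, and that spread may be technical.

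In the sarcomere, actin thin filaments are anchored at the Z-disc by alpha-actinin and overlap with myosin thick filaments, which are crosslinked at the M-band. Thin filament length and ends are set by nebulin, leiomodins and the tropomodulin caps, and the Kelch-like proteins KLHL40 and KLHL41 stabilise nebulin, KLHL40 also leiomodin 3. The Z-disc also holds repair and signalling proteins, such as filamin C and the Xin proteins, which gather at sites of myofibril damage in skeletal muscle.

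The 7 deep libraries held 12.6 to 20.7 M fragments, while control replicate 2 held 0.354 M. A count of 3 fragments, the limit that a count of 0 allows, was 0.138 to 0.241 CPM (counts per 1 M fragments of the scaled library size) in the deep libraries and 8.52 CPM in control replicate 2. These limits cover counting error only. On the first principal component control replicate 2 stood apart from the rest, and on the second EPS replicates 1 and 2 did. The myotube label was met by its markers, of which 10 of 10 were detected and tested. Their summed level was 16975 to 18135 CPM in control and 11257 to 12999 CPM in EPS, so that the groups did not overlap, although edgeR called 0 of the 10 (9 below 0, 7 lower at an unadjusted p under 0.05, 5 lower by DESeq2 and 8 lower with the replicate block). Markers of undifferentiated or dividing myoblasts summed to 512 to 965 CPM in control and 325 to 777 CPM in EPS, which overlapped. Of these, 8 of 8 were tested, all 8 were below 0 (median log2 fold change -0.41), and edgeR called 0. At an unadjusted p under 0.05, 1 was lower, with 1 lower by DESeq2 and 1 with the replicate block. Cardiomyocyte markers summed to 71.0 to 145 CPM and 44.7 to 144 CPM, mostly Myh6, with Tbx5 at 0 in all libraries and Nppa and Myl7 at 7 and 1 fragments in all. Smooth muscle markers summed to 213 to 261 CPM in control and 100.4 to 149 CPM in EPS, which did not overlap either. All 4 that were tested were below 0, and edgeR called 0. At an unadjusted p under 0.05, 4 were lower, with 2 lower by DESeq2 and 3 with the replicate block. Adipocyte and bone markers summed to at most 35.6 CPM. The part of these shifts in the results on the 37 genes was not tested. In RNA from a whole culture, fewer myotubes and less RNA per myotube cannot be told apart.

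Per length, the most abundant of the 37 transcripts were those of the skeletal actin Acta1, the intermediate filament protein desmin (Des) and the cardiac actin Actc1. Their FPKM (fragments per kilobase of transcript per 1 M fragments, as deposited) in control were 3122 ± 351, 1531 ± 360.3 and 915 ± 223 (SD, n = 4). The mechanically responsive ankyrin repeat gene Ankrd1 followed with 520.3 ± 242 FPKM and the M-band protein Myom2 with 258 ± 48.4 FPKM (SD, n = 4). Myom2, Pdlim3, Klhl41 and Actn3 had control means of 258, 242, 226 and 220.1 FPKM, which differed by less than the SD of Myom2. At the low end, Myoz1, Tmod4, Cmya5 and Myoz3 had control means of 2.00, 0.681, 0.383 and 0.0340 FPKM. Myoz1 and Tmod4 are the myozenin and tropomodulin of mature fast fibres, and their relatives Myoz2 and Tmod1 were at 177 and 37.1 FPKM. Together the 37 genes took 3.20% ± 0.344 of fragments in control and 2.89% ± 0.239 in EPS (SD, n = 4), with library ranges of 2.92% to 3.65% and 2.61% to 3.18% that overlapped.

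**Figure D1:**
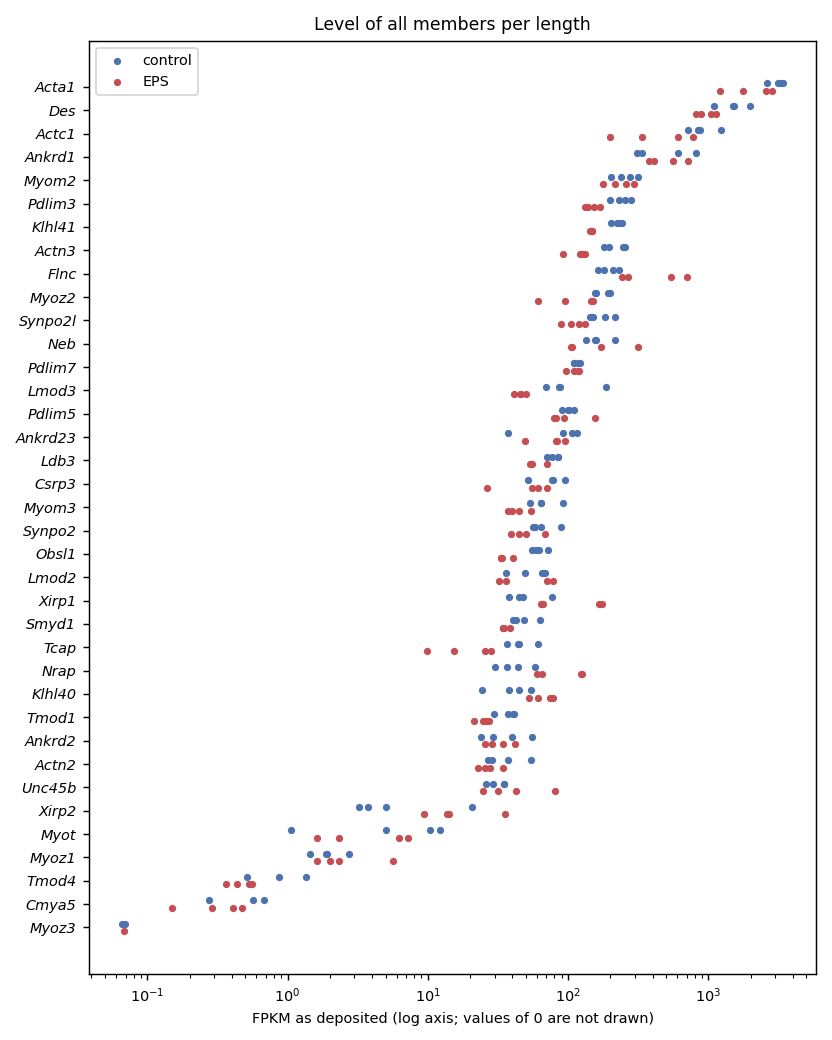
FPKM of the 37 genes on a log axis, 1 point per library (blue control, red EPS), ordered by control mean; values of 0 are not drawn. Acta1, Des and Actc1 lie at the top, and Myoz1, Tmod4, Cmya5 and Myoz3 at 2.00 FPKM or below in control.

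Between EPS and control, most of the 36 tested genes had fitted changes below 0. The 8 above 0 were Flnc, Xirp1, Nrap, Xirp2, Klhl40, Myoz1, Unc45b and Pdlim7. The median log2 fold change was -0.42 (quartiles -0.66 and -0.03), against 0.01 over all 13987 genes tested, and 28 of the 36 were below 0, against 49.1% of all genes. Past an adjusted p of 0.05 (edgeR's quasi-likelihood test, Benjamini-Hochberg over all genes tested), 1 gene fell, Klhl41, and 0 rose. Over all genes, 0.758% were called lower and 2.3% higher, together 3.06%. At an unadjusted p under 0.05, 14 of the 36 were lower (6.33% of all genes) and 4 higher (12.2%), and DESeq2 called 9 lower and 3 higher (1.89% and 4.32% of all genes). The libraries did not overlap in 11 genes with EPS below control (4.83% of all genes), namely Actn3, Myoz2, Ldb3, Des, Synpo2l, Pdlim3, Myom3, Klhl41, Lmod3, Tmod1 and Smyd1. With EPS above control this held for 2, Nrap and Klhl40 (9.32% of all genes), and 23 overlapped.

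Control and EPS libraries with the same replicate number deviated together, although replicates 3 and 4 were hardly separated by number. The pairing was read from these same data, and no label gives it. The fit was also made with the number as a block, and the block moved the count of calls. With it, 11 of the 36 were lower (4.78% of all genes) and 4 higher (7.31%). The lower genes were Actn3, Actc1, Myot, Tcap, Synpo2l, Pdlim3, Obsl1, Myom3, Klhl41, Lmod3 and Tmod1, and the higher ones Nrap, Xirp1, Xirp2 and Flnc. In same-numbered libraries, 19 genes were lower in EPS in 4 of 4 pairs (15.8% of all genes) and 6 were higher in 4 of 4 (22%), namely Myoz1, Nrap, Xirp1, Xirp2, Flnc and Klhl40. For Myoz1, control replicate 2 holds 1 fragment, and pairs 1, 3 and 4 differed by only 0.0757 to 0.233 in log2 CPM. Of the 15 block calls, 3 (Tcap, Nrap and Xirp2) were kept without pair 1, 15 without pair 2, 11 without pair 3 and 13 without pair 4. The plot of fitted changes shows both fits for each gene, and the heat map shows the same genes in each library.

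**Figure D2:**
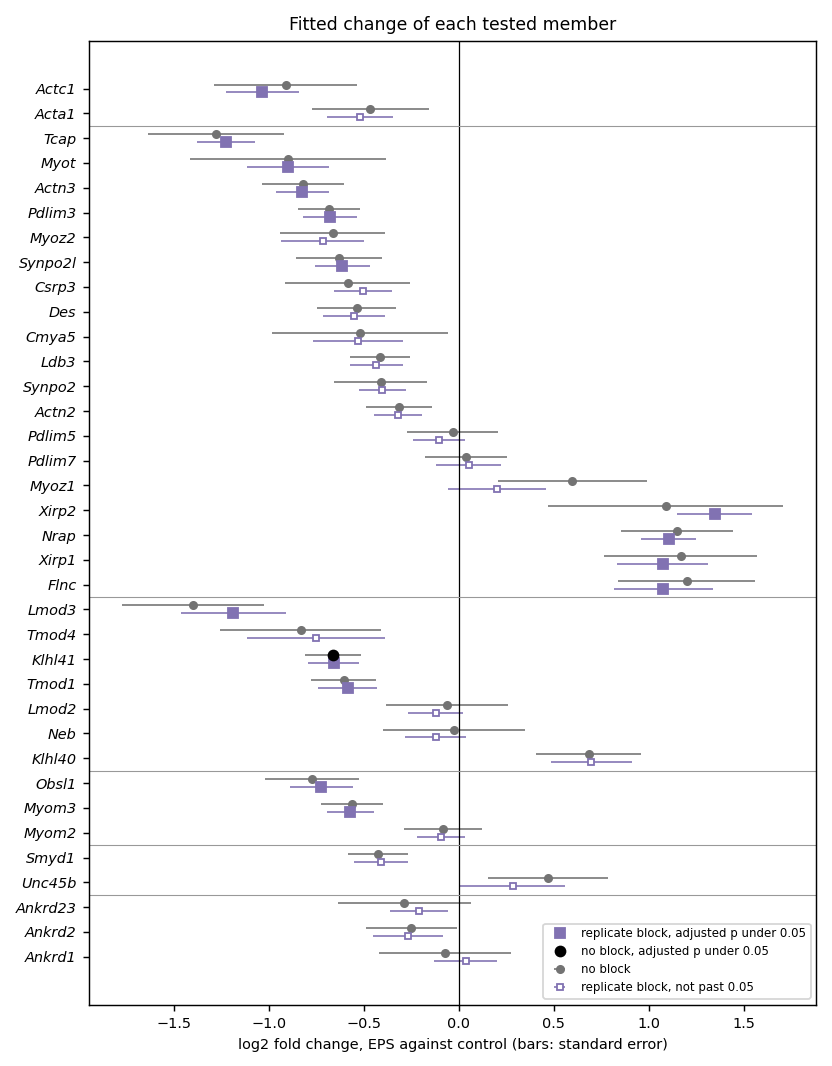
Fitted log2 fold change (EPS against control) of each tested gene with its standard error, without (round) and with (square) the replicate block, grouped by role. Filled purple squares mark the 15 genes past an adjusted p of 0.05 with the block, and the black circle marks Klhl41, past it without the block.

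**Figure D3:**
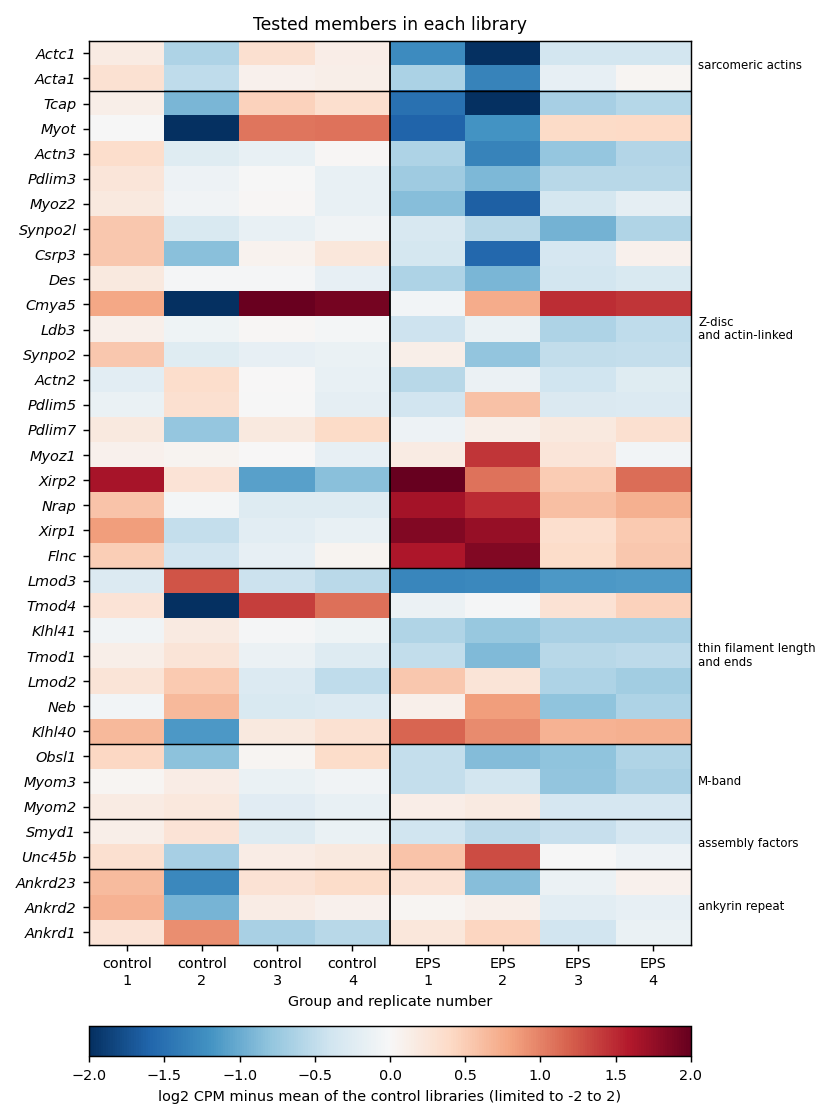
Log2 CPM of each tested gene (rows, by role) in each library (columns), minus the mean of the control libraries, with colours limited to -2 and 2. Nrap, Xirp1 and Flnc are red in the 4 EPS columns, most in replicates 1 and 2, while most other rows are blue there; control replicate 2 differs from the other controls in low genes such as Myot and Cmya5.

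Promoter sequence is shown for 5 genes that were called with the block, 3 lower and 2 higher, because members of both directions carried motifs known from muscle promoters. RefSeq windows (build GRCm38.p6, the same build as mm10, 250 bases before to 50 after the start) were found for 28 of the 37 genes, with 34 windows in all. The 250 bases before the start are printed 5′ to 3′ on the strand of the gene. Capitals mark a CArG box (bound by the serum response factor SRF), a MEF2 site, the MCAT motif CATTCC (bound by TEAD factors) and the E-box CAGCTG (bound by myogenic factors), each searched on both strands. Actc1 lies at chr2:114052876-114053125 (minus strand), with a CArG box 47 bases before the start, which RefSeq places inside the longer gene model given for Actc1 further on. The Klhl41 window is chr2:69669870-69670119 (plus strand), with CAGCTG at 127 and a MEF2 site at 63 bases before the start. For Pdlim3 it is chr8:45885237-45885486 (plus strand), with CATTCC at 201 (on the other strand) and 11 and CAGCTG at 139 bases before the start. The CATTCC at 11 lies inside the gene model given for Pdlim3 further on, which starts at chr8:45885461. Nrap has chr19:56390039-56390288 (minus strand), with CAGCTG at 16, and Xirp2 chr2:67445752-67446001 (plus strand), with a MEF2 site at 74 bases before the start.
Actc1: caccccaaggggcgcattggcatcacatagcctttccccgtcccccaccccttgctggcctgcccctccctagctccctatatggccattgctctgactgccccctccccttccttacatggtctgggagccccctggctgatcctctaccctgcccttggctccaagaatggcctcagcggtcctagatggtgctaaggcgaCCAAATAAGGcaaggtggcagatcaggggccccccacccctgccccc
Klhl41: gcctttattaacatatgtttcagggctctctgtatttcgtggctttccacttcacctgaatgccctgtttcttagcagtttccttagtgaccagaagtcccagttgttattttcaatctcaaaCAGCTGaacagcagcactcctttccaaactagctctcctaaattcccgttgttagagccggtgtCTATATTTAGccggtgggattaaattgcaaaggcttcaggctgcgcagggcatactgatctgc
Pdlim3: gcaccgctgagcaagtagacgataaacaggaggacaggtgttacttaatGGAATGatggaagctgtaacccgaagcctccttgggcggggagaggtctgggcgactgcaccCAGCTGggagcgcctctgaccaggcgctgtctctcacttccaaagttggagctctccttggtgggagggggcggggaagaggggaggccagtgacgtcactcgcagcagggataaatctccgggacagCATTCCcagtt
Nrap: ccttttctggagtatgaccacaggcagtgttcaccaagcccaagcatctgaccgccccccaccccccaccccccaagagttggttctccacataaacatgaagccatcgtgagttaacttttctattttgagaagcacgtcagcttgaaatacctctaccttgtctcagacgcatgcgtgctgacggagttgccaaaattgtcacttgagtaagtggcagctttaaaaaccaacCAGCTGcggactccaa
Xirp2: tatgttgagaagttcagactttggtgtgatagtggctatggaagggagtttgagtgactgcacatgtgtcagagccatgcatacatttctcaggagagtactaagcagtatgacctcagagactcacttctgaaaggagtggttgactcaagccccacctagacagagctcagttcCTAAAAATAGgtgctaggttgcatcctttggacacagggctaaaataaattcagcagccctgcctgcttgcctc

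Over the full 300 bases, a MEF2 site was present in 7 of the 34 windows (20.6%) and in 3.19% of 32817 windows of all genes, and a CArG box in 4 (11.8%) and 1.63%. The MEF2 windows belonged to Klhl41, Myom3, Myoz2, Synpo2, Synpo2l and Xirp2, and the CArG windows to Acta1, Actc1 and Ldb3. CAGCTG was present in 29.4% of the 34 and 16.3% of all windows, and CATTCC in 23.5% and 14.7%. The AP-1 motif TGANTCA was present in 14.7% and 7.81% (Klhl40, Ldb3, Myoz2 and Xirp2), the heat shock motif GAANNTTC in 5.88% and 7.86%, and TATAAA, searched on the strand of the gene, in 8.82% and 8.33%. MEF2 matches thus lay both in genes that were lower with the block, such as Klhl41, and in Xirp2, which was higher. These matches are descriptions of sequence and not of binding.

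The sarcomeric actins, which form the thin filament itself, were lower in EPS in all same-numbered pairs. Acta1, the adult skeletal actin (ENSMUSG00000031972, chr8:123891769-123894751, minus strand), was at 6426, 3668, 5529 and 5652 CPM in control libraries 1 to 4 and at 3369, 2074, 4647 and 5340.3 CPM in EPS libraries 1 to 4. The EPS values spread from the control range down to 2074 CPM, and the groups overlapped. Acta1 had a fitted log2 fold change of -0.46 (adjusted p = 0.458, SE 0.31), and -0.52 with the replicate block (SE 0.17, adjusted p = 0.0805), not past the threshold in either fit. Actc1, the cardiac actin that developing skeletal muscle also uses (ENSMUSG00000068614, chr2:114047282-114053548, minus strand), was at 1543, 901, 1717 and 1500.3 CPM in control libraries 1 to 4 and at 575, 304, 1070.3 and 1068 CPM in EPS libraries 1 to 4. EPS replicates 1 and 2 were lowest, and replicates 3 and 4 lay above control replicate 2 but below the other controls. Actc1 had a fitted log2 fold change of -0.91 (adjusted p = 0.226, SE 0.38), and -1.03 with the replicate block (SE 0.19, adjusted p = 0.00756), a call lost without pair 1 (adjusted p = 0.0894). The ratio of Actc1 to Acta1 fragments was 0.240, 0.246, 0.311 and 0.265 in control and 0.171, 0.147, 0.230 and 0.200 in EPS libraries 1 to 4. Each EPS ratio lay below each control ratio. The coding sequences of both genes are nearly identical, so the assignment of fragments between them is uncertain.

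Among the 20 genes of the Z-disc and its actin links, 19 were tested, 13 were below 0 and 6 above, with a median log2 fold change of -0.41, and edgeR called 0 without the block and 5 lower and 4 higher with it. At an unadjusted p under 0.05, 7 were lower and 3 higher, and DESeq2 called 4 lower and 3 higher. Of all genes, edgeR called 0.758% lower and 2.3% higher without the block, and 4.78% and 7.31% with it. At an unadjusted p under 0.05 these shares were 6.33% and 12.2%, and by DESeq2 1.89% and 4.32%. The same shares apply to the counts of the other roles and lists below. The alpha-actinins crosslink thin filaments of adjoining sarcomeres. Actn3, the fast-fibre form (ENSMUSG00000006457, chr19:4861216-4877909, minus strand), was at 1135, 753, 804 and 900.5 CPM in control libraries 1 to 4 and at 577, 352, 518 and 592 CPM in EPS libraries 1 to 4. The highest EPS library lay below the lowest control, control replicate 2. Actn3 had a fitted log2 fold change of -0.82 (adjusted p = 0.0725, SE 0.22), a 1.76-fold lower level, and -0.82 with the replicate block (SE 0.14, adjusted p = 0.00503), with an adjusted p of 0.0583 without pair 1. Actn2, found in all striated muscle, was at 134, 199, 155 and 140.4 CPM in control and 106, 144, 117 and 131 CPM in EPS libraries 1 to 4, with a fitted log2 fold change of -0.31 (adjusted p = 0.368, SE 0.17). Its level was lower in 4 of 4 pairs, but EPS replicate 2 lay above control replicates 1 and 4.

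Tcap, or telethonin, caps titin at the Z-disc (ENSMUSG00000007877, chr11:98383811-98384953, plus strand) and had the lowest fold change of this group. Tcap was at 58.5, 28.4, 74.3 and 68.1 CPM in control libraries 1 to 4 and at 19.1, 11.2, 33.9 and 36.1 CPM in EPS libraries 1 to 4. Control replicate 2, the lowest control, rests on 10 fragments and lay below EPS replicates 3 and 4, while each pair had the lower value in EPS. Tcap had a fitted log2 fold change of -1.28 (adjusted p = 0.0874, SE 0.36), 2.42-fold lower, and -1.22 with the replicate block (SE 0.15, adjusted p = 0.000912), kept without any 1 pair (adjusted p 0.0174 without pair 1). Myot, or myotilin, which binds alpha-actinin and filamin C (ENSMUSG00000024471, chromosome 18), was low, at 12.9, 2.84, 27.5 and 27.7 CPM in control libraries 1 to 4 and at 4.22, 5.61, 17.0 and 17.3 CPM in EPS libraries 1 to 4. It was called lower with the block (-0.90, adjusted p = 0.0234, and 0.101 without pair 1), but control replicate 2 holds 1 fragment and the pair of replicate 2 went the other way.

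The PDZ and LIM domain proteins, which tie signalling proteins to alpha-actinin, differed among themselves. Pdlim3, or ALP (ENSMUSG00000031636, chr8:45885461-45919548, plus strand), was at 549, 432, 462 and 417 CPM in control libraries 1 to 4 and at 281, 249, 315 and 314 CPM in EPS libraries 1 to 4. All EPS libraries lay below all control libraries. Pdlim3 had a fitted log2 fold change of -0.68 (adjusted p = 0.0515, SE 0.16), 1.61-fold lower, and -0.68 with the replicate block (SE 0.14, adjusted p = 0.012), with an adjusted p of 0.113 without pair 1. Ldb3, or ZASP, did not overlap between groups either, at 357, 313, 338 and 326 CPM in control and 249, 303, 217 and 234 CPM in EPS (fitted log2 fold change -0.41, adjusted p = 0.194, SE 0.16). It was past the threshold with the block and the length and GC offset, at -0.66 (adjusted p = 0.0175). That fit also shifted the median over all genes by -0.11. Pdlim5 and Pdlim7 overlapped, with log2 fold changes of -0.03 (SE 0.24) and 0.04 (SE 0.22) and adjusted p of 0.963 and 0.951. For Pdlim5, EPS replicate 2 at 361 CPM was above all controls, and the other 3 EPS libraries lay below all controls.

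Synpo2l, or CHAP, a Z-disc relative of the myopodin gene Synpo2 (ENSMUSG00000039376, chr14:20658946-20668354, minus strand), was at 1137, 634, 704 and 746 CPM in control libraries 1 to 4 and at 631, 533, 408 and 514 CPM in EPS libraries 1 to 4. The highest EPS library, replicate 1, lay just below the lowest control, replicate 2. Synpo2l had a fitted log2 fold change of -0.63 (adjusted p = 0.163, SE 0.22), and -0.61 with the replicate block (SE 0.14, adjusted p = 0.0214), with adjusted p of 0.159 and 0.115 without pair 1 or 3. Synpo2 itself overlapped, with a fitted log2 fold change of -0.41 (adjusted p = 0.405, SE 0.24) and control replicate 1 highest at 529 CPM. Des, or desmin, whose filaments link Z-discs sideways (ENSMUSG00000026208, chr1:75360329-75368579, plus strand), was at 6635, 5699, 5691 and 5184 CPM in control libraries 1 to 4 and at 3773, 3058, 4477 and 4704 CPM in EPS libraries 1 to 4. No EPS library reached a control library, and Des had a fitted log2 fold change of -0.54 (adjusted p = 0.197, SE 0.21), and -0.55 with the replicate block (SE 0.16, adjusted p = 0.055).

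Of the remaining Z-disc genes, Myoz2, a calcineurin-binding myozenin, did not overlap, at 324, 267, 287 and 254 CPM in control and 155, 91.3, 221 and 248 CPM in EPS, but its spread in EPS was wide (fitted log2 fold change -0.66, adjusted p = 0.231, SE 0.28). Csrp3, or muscle LIM protein, was lower in 4 of 4 pairs with overlapping groups (fitted log2 fold change -0.58, adjusted p = 0.379, SE 0.33). Cmya5, or myospryn, was at most 12.6 CPM in any library and at 0 fragments in control replicate 2 (fitted log2 fold change -0.52, adjusted p = 0.598, SE 0.46). Myoz1, the myozenin of fast fibres, had a fitted change above 0. It was at 2.44 to 2.93 CPM in control and reached 7.62 CPM in EPS replicate 2 alone, the other EPS libraries lying between 2.63 and 3.26 CPM (fitted log2 fold change 0.60, adjusted p = 0.456, SE 0.39). Its value in control replicate 2, 2.84 CPM, rests on 1 fragment, so the pair of replicate 2 is uncertain. These genes were not past the threshold in either fit.

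The 4 genes higher in EPS with the block encode large actin-binding proteins of the Z-disc and of myofibril assembly: filamin C, the nebulin-related protein NRAP and both Xin repeat proteins. Flnc, which crosslinks actin and binds the Xin proteins (ENSMUSG00000068699, chr6:29433256-29461883, plus strand), was at 3395, 1841, 2136 and 2509 CPM in control libraries 1 to 4 and at 7416, 8726, 3090.1 and 3490.5 CPM in EPS libraries 1 to 4. EPS replicates 1 and 2 were far above all other libraries, and EPS replicate 3 lay below control replicate 1. Flnc had a fitted log2 fold change of 1.20 (adjusted p = 0.107, SE 0.36), 2.30-fold higher, and 1.08 with the replicate block (SE 0.26, adjusted p = 0.0248), with an adjusted p of 0.164 without pair 1. Nrap, a scaffold of myofibril assembly and of the ends of myofibrils (ENSMUSG00000049134, chr19:56320035-56390037, minus strand), was at 491, 321, 277 and 277 CPM in control libraries 1 to 4 and at 1056, 929.5, 505 and 544 CPM in EPS libraries 1 to 4. Each EPS library lay above each control library, with replicates 1 and 2 the highest of the EPS group and replicate 1 the highest control. Nrap had a fitted log2 fold change of 1.15 (adjusted p = 0.0662, SE 0.29), 2.22-fold higher, and 1.11 with the replicate block (SE 0.15, adjusted p = 0.0013), kept without any 1 pair. Without the block it passed on leaving out EPS replicate 3 or 4 (adjusted p = 0.041 and 0.0476).

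Xirp1, or Xin, an early marker of myofibril damage (ENSMUSG00000079243, chr9:120013755-120023598, minus strand), was at 888, 355, 428 and 449 CPM in control libraries 1 to 4 and at 1799.8, 1654, 625 and 715 CPM in EPS libraries 1 to 4. EPS replicates 1 and 2 were above all controls, while replicates 3 and 4 lay above control replicates 2 to 4 but below control replicate 1. Xirp1 had a fitted log2 fold change of 1.17 (adjusted p = 0.154, SE 0.40), and 1.07 with the replicate block (SE 0.24, adjusted p = 0.0172), with an adjusted p of 0.126 without pair 1. Xirp2, its longer relative (ENSMUSG00000027022, chr2:67446002-67526614, plus strand), was at 347, 134, 52.1 and 62.0 CPM in control libraries 1 to 4 and at 641, 234, 157 and 241 CPM in EPS libraries 1 to 4. Both libraries of replicate 1 stood above the rest of their group, so the groups overlapped widely, but EPS was the higher library in 4 of 4 pairs. Xirp2 had a fitted log2 fold change of 1.09 (adjusted p = 0.383, SE 0.62), and 1.35 with the replicate block (SE 0.20, adjusted p = 0.00226), kept without any 1 pair. The block thus narrowed the error of Xirp2 and changed its call. With 1 library left out and no block, the log2 fold change of Xirp2 lay between 0.50 (adjusted p = 0.806) without EPS replicate 1 and 2.07 (adjusted p = 0.13) without control replicate 1.

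These 4 transcripts are long, at 9038 bases for Flnc, 5501 for Nrap, 5839 for Xirp1 and 11979 for Xirp2, against a median of 3220 over all tested genes. Across genes, log2 transcript length correlated with the deviation of a library from the mean over libraries, at 0.160 and 0.212 in EPS replicates 1 and 2, at -0.288 and -0.247 in EPS replicates 3 and 4, and between -0.198 and 0.113 in control (13947 genes, which are not independent). With an offset for length and GC content beside the block, the log2 fold changes were 0.80, 0.90, 0.85 and 1.16 for Flnc, Nrap, Xirp1 and Xirp2, with adjusted p of 0.0127, 0.00615, 0.00989 and 0.0345. All 4 remained past the threshold in that fit. With the offset and no block they were 0.86, 0.90, 0.93 and 0.87, with adjusted p of 0.172, 0.133, 0.196 and 0.418. None of the 4 was past the threshold there. The longest gene of the set, Neb at 22489 bases, had log2 fold changes of -0.03 without the offset, -0.64 (adjusted p = 0.248) with it and -0.55 (adjusted p = 0.0913) with the block and the offset. The offset also shifted the median over all genes, by -0.13, or -0.11 with the block, and these fold changes include that shift.

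**Figure D4:**
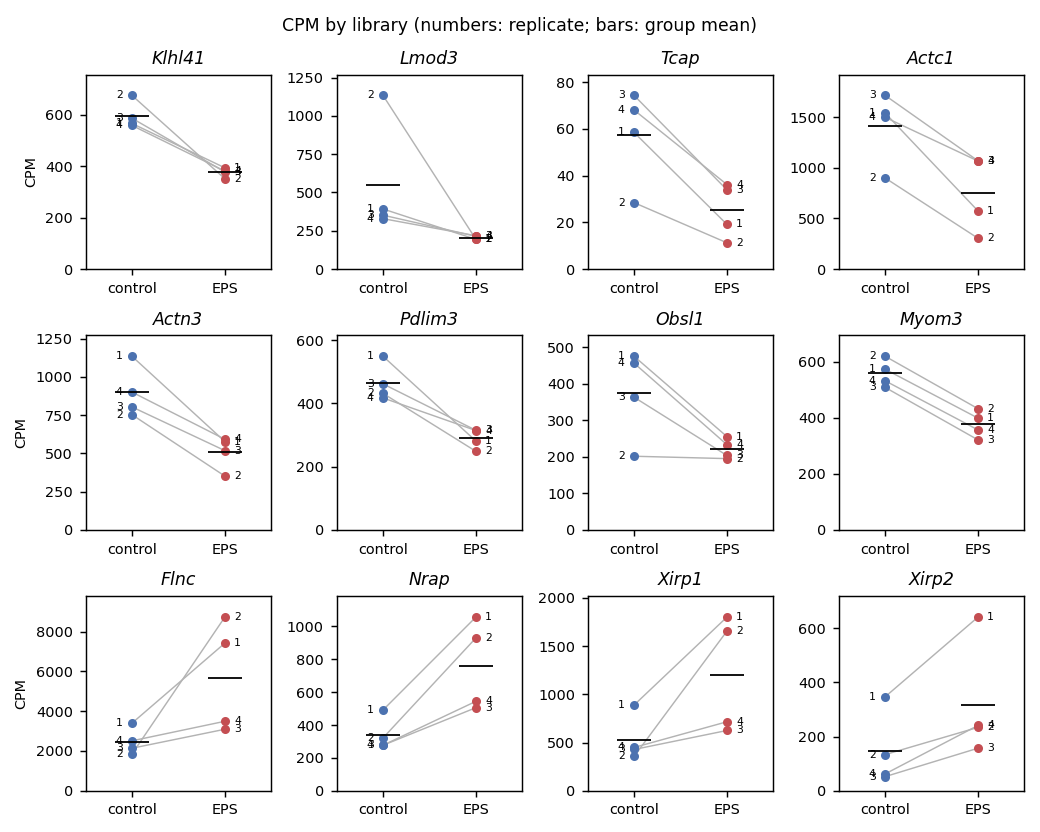
CPM of 12 genes in each library (blue control, red EPS; numbers give the replicate, black bars the group mean, grey lines join equal replicate numbers; axes start at 0). Klhl41, Lmod3, Actn3, Pdlim3 and Myom3 do not overlap between groups, Lmod3 is set by control replicate 2 in its control mean, and Flnc, Nrap, Xirp1 and Xirp2 are higher in EPS along each grey line.

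The genes of thin filament length and ends contained the call made without the block. Of 7 tested, 6 were below 0, with a median log2 fold change of -0.61, 1 fell and 0 rose without the block, and 3 were lower with it. Klhl41, a Kelch-like protein that stabilises nebulin and is needed for myofibril upkeep (ENSMUSG00000075307, chr2:69670120-69684230, plus strand), was at 567, 676, 587 and 559 CPM in control libraries 1 to 4 and at 394, 352, 378 and 381 CPM in EPS libraries 1 to 4. The groups were far apart relative to their spread, with all EPS libraries between 352 and 394 CPM. Klhl41 fell 1.58-fold, with a fitted log2 fold change of -0.66 (adjusted p = 0.0414, SE 0.15), and -0.66 with the replicate block (SE 0.13, adjusted p = 0.0107), with an adjusted p of 0.0635 in that fit without pair 1. The call was close to the threshold. It held without control replicate 2 (adjusted p = 0.0397), and without any 1 of the other 7 libraries the adjusted p was 0.0555 to 0.143, with log2 fold changes between -0.71 and -0.61 over all 8.

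Klhl40, its relative that stabilises nebulin and leiomodin 3 (ENSMUSG00000074001, chr9:121777607-121783818, plus strand), had the opposite sign. Klhl40 was at 159, 45.5, 116 and 124 CPM in control libraries 1 to 4 and at 226, 194, 163 and 165 CPM in EPS libraries 1 to 4. Each EPS library lay above each control library, the closest being EPS replicate 3 and control replicate 1, and control replicate 2 rests on 16 fragments. Klhl40 had a fitted log2 fold change of 0.69 (adjusted p = 0.217, SE 0.28), and 0.70 with the replicate block (SE 0.21, adjusted p = 0.0581), not past the threshold, but past it with the block and the length and GC offset, at 0.53 (adjusted p = 0.0482). The ratio of Klhl41 to Klhl40 fragments was 3.58, 14.9, 5.06 and 4.50 in control libraries 1 to 4 and 1.74, 1.82, 2.32 and 2.31 in EPS libraries 1 to 4, with no overlap also without control replicate 2.

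Lmod3, a leiomodin that nucleates actin and lengthens thin filaments (ENSMUSG00000044086, chr6:97238534-97252759, minus strand), was at 392, 1134, 352 and 329 CPM in control libraries 1 to 4 and at 194, 194, 214 and 217 CPM in EPS libraries 1 to 4. The EPS libraries lay close together and below all controls, and control replicate 2 was far above the other controls, on 399 fragments. Lmod3 had a fitted log2 fold change of -1.40 (adjusted p = 0.0743, SE 0.37), and -1.19 with the replicate block (SE 0.28, adjusted p = 0.0205), with an adjusted p of 0.129 without pair 1. Without control replicate 2 the log2 fold change was -0.81 (adjusted p = 0.019), smaller but past the threshold. Its relative Lmod2 overlapped, at 231, 278, 161 and 136 CPM in control and 279.9, 233, 126 and 120.0 CPM in EPS (fitted log2 fold change -0.06, adjusted p = 0.949, SE 0.32). The Lmod3 to Lmod2 ratio of fragments was 1.70, 4.07, 2.19 and 2.43 in control and 0.691, 0.836, 1.70 and 1.81 in EPS libraries 1 to 4, which overlapped through EPS replicates 3 and 4.

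Tmod1, which caps the pointed ends (ENSMUSG00000028328, chr4:46038935-46116032, plus strand), was at 209, 230.1, 177 and 159.8 CPM in control libraries 1 to 4 and at 136, 104, 131 and 133 CPM in EPS libraries 1 to 4. No EPS library reached the lowest control, replicate 4. Tmod1 had a fitted log2 fold change of -0.61 (adjusted p = 0.0863, SE 0.17), and -0.58 with the replicate block (SE 0.16, adjusted p = 0.0361), with adjusted p of 0.195 and 0.055 without pair 1 or 3 and of 0.0649 with the block and the length and GC offset. Its exons overlap those of Tstd2 on the opposite strand over 32.6% of their bases, and as the labels do not give the strand setting of the counting, fragments there are uncertain. Tmod4, the skeletal tropomodulin, was at most 2.13 CPM and at 0 in control replicate 2 (fitted log2 fold change -0.83, adjusted p = 0.33, SE 0.42). Neb, or nebulin, the ruler along the thin filament, was at 5056, 8197, 4242 and 4326 CPM in control and 5629.9, 9347, 3015 and 3432 CPM in EPS. EPS replicate 2 and control replicate 2 were highest in their groups, and Neb had a fitted log2 fold change of -0.03 (adjusted p = 0.984, SE 0.38). In same-numbered libraries it was higher in EPS in pairs 1 and 2 and lower in pairs 3 and 4.

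The 3 M-band genes, whose proteins crosslink thick filaments in the middle of the sarcomere, were all below 0 (median -0.56), with 0 calls by edgeR without the block and 2 lower with it. At an unadjusted p under 0.05, Obsl1 and Myom3 were lower, and DESeq2 called both. Myom3, a myomesin of intermediate fibres (ENSMUSG00000037139, chr4:135759715-135815564, plus strand), was at 573, 619, 508 and 532 CPM in control libraries 1 to 4 and at 399, 432, 321 and 357 CPM in EPS libraries 1 to 4. All EPS libraries lay below all controls, and the order of replicates was the same in both groups. Myom3 had a fitted log2 fold change of -0.56 (adjusted p = 0.0939, SE 0.16), and -0.57 with the replicate block (SE 0.12, adjusted p = 0.0147), with adjusted p of 0.0917, 0.101 and 0.0611 without pair 1, 3 or 4. Obsl1, a cytoskeletal adaptor that links titin and myomesin (ENSMUSG00000026211, chr1:75479310-75506452, minus strand), was at 476, 202, 363 and 457 CPM in control libraries 1 to 4 and at 256, 195, 204 and 233 CPM in EPS libraries 1 to 4. Control replicate 2 lay among the EPS libraries and the other controls above them. Obsl1 had a fitted log2 fold change of -0.77 (adjusted p = 0.126, SE 0.25), and -0.72 with the replicate block (SE 0.17, adjusted p = 0.019), with adjusted p of 0.164, 0.0588 and 0.0596 without pair 1, 3 or 4. It passed without control replicate 2, at -0.96 (adjusted p = 0.0213). In FPKM as deposited, the groups did not overlap, at 71.6, 55.5, 62.2 and 58.7 FPKM in control and 40.4, 33.2, 33.6 and 33.3 FPKM in EPS, and limma on log2(FPKM + 1) called it (adjusted p = 0.0297). Tcap (36.5 to 61.2 FPKM in control, 9.81 to 28.0 in EPS) and Flnc (165 to 232 and 241 to 708) likewise overlapped in CPM but not in FPKM. Conversely, Des, Klhl40 and Myom3 overlapped in FPKM but not in CPM.

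Myom2, the myomesin of fast fibres and the most abundant of the 3 per length (ENSMUSG00000031461, chr8:15057653-15133541, plus strand), was at 1911, 1975, 1458 and 1532 CPM in control libraries 1 to 4 and at 1867, 1926, 1344 and 1352 CPM in EPS libraries 1 to 4. Replicates 1 and 2 were higher than replicates 3 and 4 in both groups, and Myom2 had a fitted log2 fold change of -0.08 (adjusted p = 0.874, SE 0.20). The ratio of Myom3 to Myom2 fragments was 0.300, 0.314, 0.349 and 0.347 in control and 0.214, 0.225, 0.239 and 0.264 in EPS libraries 1 to 4. Each EPS ratio lay below each control ratio. Ratios within libraries are given as descriptions, without a test.

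The assembly factors and the ankyrin repeat genes had 0 calls by edgeR with or without the block and 0 by DESeq2. Smyd1, a muscle methyltransferase that helps to fold myosin (ENSMUSG00000055027, chr6:71213940-71322233, minus strand), was at 193, 216, 149 and 163 CPM in control libraries 1 to 4 and at 135, 124, 130.3 and 141 CPM in EPS libraries 1 to 4. The groups did not overlap, and the control libraries of replicates 1 and 2 were the highest. Smyd1 had a fitted log2 fold change of -0.43 (adjusted p = 0.178, SE 0.16), and -0.41 with the replicate block (SE 0.14, adjusted p = 0.0916), the one of the 5 genes at an unadjusted p under 0.05. Unc45b, the myosin chaperone that works with HSP90, was at 163, 82.4, 145 and 149 CPM in control and 195, 322, 129.7 and 121 CPM in EPS. It was higher in EPS in pairs 1 and 2 and lower in pairs 3 and 4 (fitted log2 fold change 0.47, adjusted p = 0.468, SE 0.32).

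The 3 ankyrin repeat proteins bind titin in the I-band and are known to respond to stretch and injury. Ankrd1, or CARP (ENSMUSG00000024803, chr19:36111961-36120099, minus strand), was at 1398, 2190.5, 736 and 789.8 CPM in control libraries 1 to 4 and at 1349.6, 1562, 883 and 1048 CPM in EPS libraries 1 to 4. Control replicate 2 was highest of all libraries and control replicates 3 and 4 the lowest, so the EPS range lay within the control range, and Ankrd1 had a fitted log2 fold change of -0.07 (adjusted p = 0.943, SE 0.35). Ankrd2 and Ankrd23 were at 31.3 to 96.8 CPM and 85.2 to 326 CPM in control, with log2 fold changes of -0.25 (SE 0.24) and -0.29 (SE 0.35). Both had their lowest library in control replicate 2, on 11 and 30 fragments, and were lower in EPS in the other 3 pairs. The annotated exons of Ankrd23 are covered to 78.2% by another model on the same strand, Gm42417, so its fragments are uncertain.

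The libraries of replicates 1 and 2 and those of replicates 3 and 4 were compared within 1 fit. The labels do not say what a replicate number marks, and replicates 1 and 2 contain the shallow control replicate 2. The direction was the same in both sets for 30 of the 36 genes, 24 below and 6 above 0, while 5 were above 0 in replicates 1 and 2 and below in replicates 3 and 4, and 1 the reverse (Ankrd1). Within replicates 1 and 2, 11 genes were lower and 3 higher (4.11% and 8.52% of all genes), and within replicates 3 and 4 edgeR called 0 of either direction (0.293% and 1.09%), with 9 lower and 2 higher at an unadjusted p under 0.05. The share of all genes at that unadjusted p was not computed for this fit, so these counts stand without a comparison. The median over the 36 genes was -0.35 in replicates 1 and 2 and -0.29 in replicates 3 and 4. Myoz2, Lmod3, Actc1, Tcap and Flnc had smaller fitted changes in replicates 3 and 4, with log2 fold changes of -1.28 and -0.20 for Myoz2, -1.93 and -0.66 for Lmod3, -1.49 and -0.59 for Actc1, -1.75 and -1.02 for Tcap and 1.62 and 0.50 for Flnc. Xirp2 had the larger change in replicates 3 and 4 (0.77 and 1.80), and Unc45b differed in sign (0.95 and -0.23). Klhl41 (-0.73 and -0.59), Nrap (1.26 and 0.92), Synpo2l (-0.63 and -0.65) and Myom3 (-0.52 and -0.62) were closer. The difference between the sets passed edgeR's test for 0 of the 36 genes and for 0 of all 13987 genes (0%). At an unadjusted p under 0.05 were 4 of the 36 (Myoz2, Flnc, Unc45b and Lmod3). Over all genes these were 1483 of 13987, a similar share. For Flnc that difference was -1.11 (SE 0.39, adjusted p = 0.396), so a difference between the sets was neither shown nor shown to be absent.

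**Figure D5:**
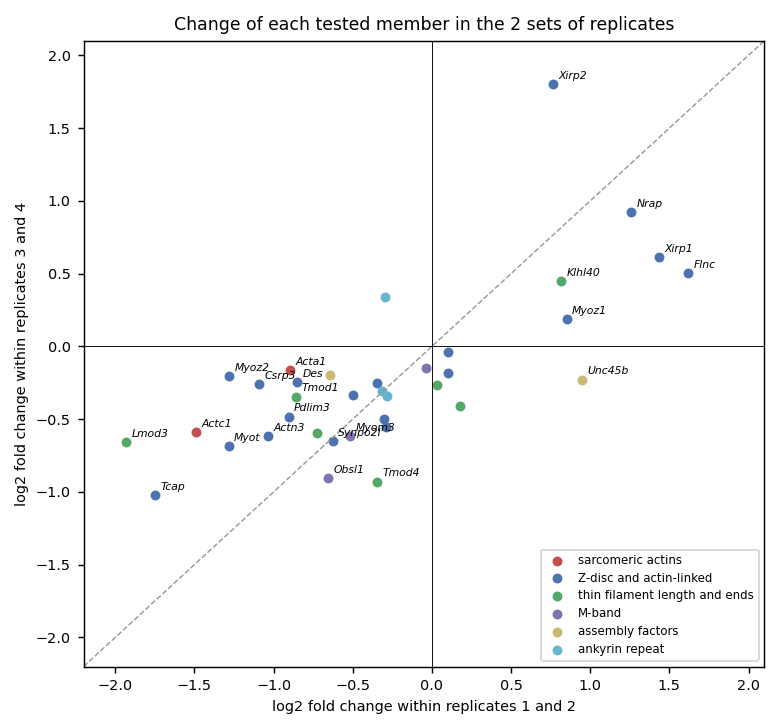
Log2 fold change of each tested gene within replicates 1 and 2 (x axis) and within replicates 3 and 4 (y axis), coloured by role; the dashed line marks equal changes. Of 36 points, 24 lie below 0 and 6 above 0 on both axes.

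Other genes of the same structures were taken from lists that do not contain the 37. Over all genes, edgeR called 2.3% higher and 0.758% lower, and 7.31% and 4.78% with the block. Of 28 further Z-disc genes, 2 rose, 0 fell and 18 were below 0 (median -0.30), with 3 higher and 8 lower with the block. Bag3, a co-chaperone that clears damaged filamin, rose from 118 CPM ± 9.58 to 665 CPM ± 539 (SD, n = 4 each), with a fitted log2 fold change of 2.50 (adjusted p = 0.0285, SE 0.51). Cryab, a small heat shock protein that binds desmin and titin, rose from 687 CPM ± 170.4 to 1697 CPM ± 442 (SD, n = 4 each), with a fitted log2 fold change of 1.30 (adjusted p = 0.0218, SE 0.25). Of 18 further thin filament genes, 1 fell and 0 rose, and 10 were below 0 (median -0.08). Fhod3, a formin that assembles sarcomeric actin, fell from 81.5 CPM ± 4.38 to 42.3 CPM ± 4.83 (SD, n = 4 each), with a fitted log2 fold change of -0.94 (adjusted p = 0.00737, SE 0.14). Of 8 titin and further M-band genes, 6 were tested, because Ttn and Myom1 are marked as skipped in the table, and edgeR called 0 of 6. At an unadjusted p under 0.05, 3 were lower and 0 higher, as by DESeq2 and with the block.

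Of 11 further Kelch-like and turnover genes, 9 were tested, of which 1 rose and 3 fell. Hspb8, the partner of BAG3, rose with a fitted log2 fold change of 1.34 (adjusted p = 0.0448, SE 0.31). Klhl31, a Kelch-like relative of Klhl41, fell from 267 CPM ± 53.9 to 115 CPM ± 11.1 (SD, n = 4 each), with a fitted log2 fold change of -1.20 (adjusted p = 0.00659, SE 0.18). Asb2, a ubiquitin ligase subunit that targets filamins for breakdown, fell with a fitted log2 fold change of -1.45 (adjusted p = 0.0279, SE 0.29), and Capn3, the muscle calpain, with a fitted log2 fold change of -0.81 (adjusted p = 0.0483, SE 0.19). Of 7 tested intermediate filament genes, 1 rose, Synm, a partner of desmin (fitted log2 fold change 1.36, adjusted p = 0.0201, SE 0.25), and 0 fell. Of the 4 other actins, 1 fell, the smooth muscle actin Acta2 (fitted log2 fold change -1.11, adjusted p = 0.0328, SE 0.23), and all 4 were below 0. Among 15 SRF, MRTF and YAP genes edgeR called 0 without the block, and 2 higher and 3 lower with it. At an unadjusted p under 0.05, 3 were higher and 5 lower, and DESeq2 called 1 higher and 2 lower. The most abundant of them, Cald1 (caldesmon), had a fitted log2 fold change of -0.42 (adjusted p = 0.204, SE 0.17). Srf, which binds the CArG box, had a fitted log2 fold change of -0.57 (adjusted p = 0.0914, SE 0.16), and -0.60 with the block (adjusted p = 0.0148). Of the 9 genes called in these lists, Fhod3 and Klhl31 were called without any 1 of the 8 libraries, with adjusted p of at most 0.0441 and 0.0388. The calls of Bag3, Cryab, Asb2, Capn3, Hspb8, Synm and Acta2 were each lost without EPS replicate 1 and without control replicate 3, and the highest adjusted p with 1 library left out was 0.115, 0.111, 0.112, 0.168, 0.153, 0.119 and 0.109. Cryab overlaps Hspb2 on the opposite strand and Capn3 overlaps Ganc on its own strand in the annotation, so fragments there are uncertain.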

How the data were processed

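Total RNA of C2C12 myotubes was sequenced in 4 control and 4 EPS libraries, grouped and numbered from the sample titles. STAR 2.5.1, Cufflinks, Cuffdiff 2.2.1 and build mm10 are named in the submitters' processing notes. The deposited table lists, per the file headers, unscaled estimated counts of fragments and FPKM that the authors scaled between libraries, for each gene and library. No source used here gives the annotation release or the strand setting. Symbols and positions came from GENCODE vM21, matched on the identifier without version. Of the estimated counts above 0, 93.3% were whole (within 1e-09), and all were rounded. The 46 genes marked as skipped were left out.

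Genes passing filterByExpr (minimum count 10, minimum total 15) were tested with TMM scaling by the quasi-likelihood test of edgeR 4.0.16 (R 4.3.3) on all 8 libraries without a block, adjusted by Benjamini-Hochberg over 13987 genes at a threshold of 0.05. CPM values use the TMM-scaled library sizes. Standard errors were computed from each fold change and F statistic and are approximate. The test was checked on data simulated from these libraries. Same-numbered control and EPS libraries deviated together from their group means (correlations across genes of 0.300, 0.214, 0.286 and 0.297 for replicates 1 to 4). By this check the numbers pair the libraries of replicates 1 and 2, although no label says what a number marks. Control replicate 4 with EPS replicate 3 and control replicate 3 with EPS replicate 4 gave 0.253 and 0.231, so replicates 3 and 4 were hardly separated by number. The fit with the replicate number as a block is therefore given where it changes a call. Alternatives were RLE scaling, no filter, DESeq2 1.42.0, limma 3.58.1 on log2(FPKM + 1) or log2(FPKM + 0.1) for genes at a mean FPKM of at least 1, an offset for length and GC content, each library left out, sets of replicates and, chosen after seeing the data, each pair left out with the block. Overlap of groups was judged on CPM and pairs on log2 CPM with a prior count of 2.

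The 37 genes and all lists were chosen with earlier results of these data known. Full values are given for genes past the threshold with or without the block and for the most abundant gene of each role; of the other lists, genes past the threshold or else the most abundant are named, except 1 that is not reported here. Srf, Klhl40 and the other genes beside these were chosen after their values were seen.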

Additional observations from a re-analysis of the deposited data

Results flagged for a closer look

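In each group of 4 libraries, the highest or lowest library was set against the other 3 on log2 CPM, for 36 genes in both groups. A library stood far from the others in 5 of 72 such groups, where chance gives about 1 in 20. Lmod3 was at 10.15 in control replicate 2, with the other controls at 8.36 to 8.62. Pdlim7 was at 6.46 in control replicate 2, with the other controls at 7.42 to 7.61. Both values come from the shallow library, Lmod3 on 399 and Pdlim7 on 31 fragments. In FPKM as deposited, Pdlim7 was at 121 in control replicate 2 and at 110 to 118 in the other controls. Lmod3 was at 187 FPKM there and at 69.3 to 87.7 FPKM in the other controls. Synpo2 was at 9.05 in control replicate 1, with the other controls at 8.26 to 8.38. Pdlim5 was at 8.49 in EPS replicate 2 and the other EPS libraries at 7.52 to 7.64. Tmod1 was at 6.70 in EPS replicate 2 and the other EPS libraries at 7.04 to 7.09.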

How the results depend on the processing

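Among the 36 tested genes, 0 were higher and 1 lower in the fit without a block. The lower count was 2 with RLE scaling, 5 with no filter, 9 with DESeq2, 5 with the length and GC offset, 11 with the replicate block, 11 with the block and that offset (Ldb3 in place of Tmod1), 11 for replicates 1 and 2, and 0 for replicates 3 and 4. With the block it was 1, 17, 8 and 11 without pair 1, 2, 3 or 4, and on leaving out 1 library without the block it ranged from 0 to 4. The higher count was 1 with no filter, 3 with DESeq2, 4 with the block, 5 with the block and the offset, 3 for replicates 1 and 2, then 2, 5, 4 and 5 with the block without pair 1, 2, 3 or 4, and 0 to 1 on leaving out 1 library. The 4 lower genes without control replicate 2 were Klhl41, Lmod3, Obsl1 and Pdlim3. In limma on log2(FPKM + 1) and on log2(FPKM + 0.1), the 1 lower gene was Obsl1 and not Klhl41.

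The median log2 fold change of -0.42 was -0.36 in limma without a filter, -0.66 with the length and GC offset, -0.65 with the block and that offset, -0.35 for replicates 1 and 2, -0.29 for replicates 3 and 4, -0.48 with the block without pair 3, and -0.50 to -0.38 on leaving out 1 library. The length and GC offset lowered the median over all genes by itself, by a shift of -0.13, or -0.11 with the block. Relative to all genes, the median of the 36 was -0.54 with the offset, -0.55 with the block and the offset, and -0.43 without either.

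Over all genes, 322 were higher and 106 lower without a block. These were 659 and 288 with DESeq2, 114 and 48, 87 and 37, and 51 and 15 in limma with pseudocounts of 1 and 0.1 and without a filter, 1023 and 668 with the replicate block, 622 and 708 with the block and the offset, 1191 and 575 for replicates 1 and 2, and 153 and 41 for replicates 3 and 4. With the block they were 255 and 135, 1290 and 1167, 723 and 382, and 837 and 491 without pair 1, 2, 3 or 4. The lower genes were 162 with no filter and 221 with the offset, where higher genes made up 54.9% of calls against 75.2% in the fit without a block, 60.5% with the block and 46.8% with both. On leaving out 1 library, higher genes ranged from 92 to 427 and lower genes from 22 to 167. The cause of these shifts was not tested. The depth of control replicate 2 limits every low gene: 1 fragment there was the control value of Myot and of Myoz1, and Tmod4 and Cmya5 were at 0. No alternative turned the direction of Klhl41, the 1 gene of the 36 called without the block. Its call was lost in limma, for replicates 3 and 4, with the block without pair 1, and on leaving out most single libraries.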
